A study of Mus musculus with 23 samples.

Results

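Coenzyme Q biosynthesis in mouse brown adipose tissue (BAT) was followed through the transcripts of Pdss1, Pdss2, Coq2, Coq3, Coq5, Coq6, Coq7, Coq9, Adck3 and Coq10b. They were taken by symbol and are 10 of the 14651 genes in the table. Adck3 is the older symbol of Coq8a. The members were chosen by name and by their changes with cold and genotype, which were already known from the normalized counts of these mice. Those changes are therefore given as a description. Counts of members past the threshold of the fit over all genes stand beside the same count for all genes, and are not evidence for the members.

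Coenzyme Q, or ubiquinone, is a lipid of the inner mitochondrial membrane that carries electrons from dehydrogenases to complex III of the respiratory chain. It is built from an aromatic ring and a long isoprenoid tail, and most of the enzymes that finish the ring work as a complex on the matrix side of the membrane. Brown fat is rich in mitochondria and burns fuel through uncoupled respiration, a process that runs its electrons through ubiquinone.

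BAT from 23 male C57BL/6 mice of 8 to 12 weeks was sequenced in 4 groups. In controls (Mcu[fl/fl]) both copies of Mcu, the pore subunit of the mitochondrial calcium uniporter, had exon 2 flanked by loxP but no Cre was present. BAT-Mcu-KO mice (knockout mice below) had the same floxed gene and Ucp1-Cre, a transgene in which the Ucp1 promoter drives Cre, so that the exon is lost from cells that use this promoter and not from the others. Mice of each genotype stayed at room temperature (RT, 6 controls and 6 knockouts) or were moved to 4°C for 6 h (5 controls and 6 knockouts). Mice at 4°C were housed singly in cages without bedding and, unless otherwise stated, without food. Because the feeding of the mice at RT is not given for these samples, cold, single housing and food withdrawal cannot be told apart.

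The values are normalized counts, or reads scaled by a size factor for each library. Depth was 7129271 to 21006347 reads per mouse, and 23.1% to 38.1% of these came from the mitochondrial genome. Mcu fell to a mean of 35.1 normalized counts in knockout against 109.5 in control mice at RT (limma adjusted p = 0.001), with no overlap between the groups. Cold raised Ucp1 2.59-fold, Ppargc1a 33.7-fold and Dio2 33.1-fold in control mice (ratios of means; limma adjusted p = 1.01e-10, 1.95e-14 and 8.85e-12). Ucp1 and the other brown adipocyte markers were present in every library. By cold, 3 of these 5 markers passed as higher in each genotype, and 1 passed as lower in control and 0 in knockout mice. Mean Cidea was 49560 at RT and 39298 at 4°C in control mice, and mean Cox7a1 was 5166 and 3687. The summed count of 6 skeletal muscle genes ran from 6.22 to 30099.7 in control mice at 4°C and reached 42697 in knockout mice at RT, and no muscle gene passed the test in any comparison. Of 4 endothelial markers 2, Pecam1 and Kdr, rose by cold in both genotypes, while the sum of the 4 was 2437 to 3699 for control mice at RT and 4601 to 7352 at 4°C. Of 3 white adipocyte markers 2 fell in both genotypes, and of 4 macrophage markers 0 passed in control and 2 rose in knockout mice. The part of these cell types in the results was not tested. In whole tissue, fewer cells of a type and less RNA per cell cannot be told apart.

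Adck3 was the member that differed most between temperatures. It encodes an atypical kinase of the inner membrane that keeps the biosynthetic complex in working order. In control mice at RT its normalized count ran from 16463 to 20704, with a median of 17934. In the 5 control mice at 4°C it was 3689.5, 4163, 3252, 2787 and 3474. Every mouse in the cold lay below every mouse at RT, and the cold mean was 19.2% of the RT mean. Knockout mice showed the same separation. Their RT values lay between 16821 and 22653 (median 18806) and their 4°C values between 2665 and 4058 (median 3654), and the cold mean was 18.4% of the RT mean.

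On the log2(normalized count + 1) scale the difference of Adck3 at 4°C from RT was -2.39 (SE 0.11) for control and -2.45 (SE 0.10) for knockout mice. Counted from the lowest log2 difference, it was number 132 of the 14651 genes in control mice and number 85 in knockout mice. The values rest on 1824 or more reads per mouse, so counting error was small beside the spread between mice (SD 8.39% to 14.7% of the mean). Adck3 lies at chr1:180165238-180199602 on the minus strand (GRCm38). In that annotation it shares 366 bases, 6.91% of its exon bases, with Cdc42bpa on the other strand, and the counting did not use strand.

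Coq10b had the largest difference of the 10 genes in the other direction. It lies at chr1:55052770-55072702, and 7.14% of its exon bases are shared with a model on the other strand. Its product is a START-domain protein that binds ubiquinone and is needed for its use in the respiratory chain. Control mice at RT had 479 to 595 normalized counts (median 568), and the 5 control mice at 4°C had 1442, 1044, 1129, 877 and 1057. Knockout mice had 425 to 564 (median 489) at RT and 1008 to 1244 (median 1085) at 4°C. All mice in the cold were above all mice at RT of their genotype. The log2 difference was 1.00 (SE 0.10) for control and 1.17 (SE 0.10) for knockout mice.

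Pdss1 and Pdss2 encode the subunits of the enzyme that builds the isoprenoid tail. Pdss1 ran from 129 to 158 normalized counts (median 148) in control mice at RT. In the 5 control mice at 4°C it was 247, 305, 204, 240.2 and 270.2, all above the RT mice. Knockout mice had 113 to 173 (median 141) at RT and 180.2 to 271 (median 209) at 4°C, again without overlap. The log2 difference was 0.77 (SE 0.12) in control and 0.60 (SE 0.12) in knockout mice.

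Pdss2 had means of 347 ± 35.2 (SD, n = 6) at RT and 304 ± 52.1 (n = 5) at 4°C in control mice, and 324 ± 30.7 and 303 ± 43.8 (n = 6 each) in knockout mice. The groups overlapped in both genotypes, and its log2 difference was -0.20 (SE 0.12) and -0.11 (SE 0.11). The partner subunits thus had differences of opposite sign in each genotype, though both values of Pdss2 are within 2 SE of 0.

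The stretches of sequence upstream of an annotated start of Adck3, Coq10b and Pdss1 are shown. These genes had the largest log2 differences by temperature, in the 2 directions. They come from RefSeq on GRCm38.p6, start 250 bases before an annotated start, and are written 5′ to 3′ on the strand of the gene. Capitals mark a match to one of 4 motifs searched on both strands. The motifs were TGACGTCA (the cAMP response element), TGATGNAA (an ATF4 element), CACGTG (an E-box) and AAGGTCA (an extended nuclear receptor half-site). The Adck3 stretch is the upstream part of the first of its RefSeq windows, 195 bases at chr1:180196076-180196270, cut where an annotated untranslated exon begins. It lies inside the span of the gene given above, which is from GENCODE and begins further upstream. Coq10b is at chr1:55052520-55052769 and Pdss1 at chr2:22895272-22895521.
Adck3: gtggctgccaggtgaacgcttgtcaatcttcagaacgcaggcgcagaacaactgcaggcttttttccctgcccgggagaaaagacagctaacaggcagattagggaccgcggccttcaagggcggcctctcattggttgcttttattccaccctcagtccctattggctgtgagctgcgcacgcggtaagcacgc
Coq10b: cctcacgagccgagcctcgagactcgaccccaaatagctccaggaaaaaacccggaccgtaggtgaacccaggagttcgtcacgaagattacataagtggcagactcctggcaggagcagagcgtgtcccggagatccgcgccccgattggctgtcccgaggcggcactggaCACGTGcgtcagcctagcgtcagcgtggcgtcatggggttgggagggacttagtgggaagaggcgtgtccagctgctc
Pdss1: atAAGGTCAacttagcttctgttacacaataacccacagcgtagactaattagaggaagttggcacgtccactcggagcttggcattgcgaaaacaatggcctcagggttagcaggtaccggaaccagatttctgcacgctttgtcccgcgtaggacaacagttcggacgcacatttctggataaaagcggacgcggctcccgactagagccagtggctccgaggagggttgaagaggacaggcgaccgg

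RefSeq windows were found for 9 of the 10 members, 11 windows in all. The E-box was found in 1 of them, that of Coq10b, at bases 78 to 73 before the start, and 6.02% of 32851 windows of 250 bases in the genome hold it. The extended half-site was found in that of Pdss1, at bases 248 to 242 before the start, against 4.08% of all windows. The cAMP response element and the ATF4 element were in 0 of the 11 windows, and they are in 1.55% and 3.45% of all windows. Only the full letters given above were searched, and shorter or variant forms of these elements were not. A match is a run of letters, and no binding was measured here.

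Coq2 attaches the tail to the ring precursor, and Coq6, Coq3, Coq5 and Coq7 then hydroxylate and methylate the ring. Coq2 ran from 205 to 289 normalized counts (median 258) in control mice at RT and was 184, 185, 214, 215 and 184 in the 5 mice at 4°C. Its log2 difference was -0.33 (SE 0.12) in control and -0.24 (SE 0.11) in knockout mice, and the groups overlapped in both. Coq6, a flavin monooxygenase, had means of 2284 ± 271 (SD, n = 6) at RT and 2013 ± 217 (n = 5) at 4°C in control mice and a log2 difference of -0.18 (SE 0.09). In knockout mice its difference was -0.05 (SE 0.08). Coq3, an O-methyltransferase, had -0.07 (SE 0.09) in control and 0.14 (SE 0.09) in knockout mice, so its sign was not the same in the genotypes and both values are within 2 SE of 0.

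Coq5, the C-methyltransferase, had a mean of 2016 ± 325 (SD, n = 6) in control mice at RT and 1590.4 ± 316 (n = 5) at 4°C, and 2225 ± 353 and 1709 ± 312 (n = 6 each) in knockout mice. Its log2 difference was -0.35 (SE 0.15) and -0.39 (SE 0.14). The groups overlapped in each genotype, and 5 of 6 knockout mice at 4°C lay below all those at RT.

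Coq7 and Coq9 act at the same late hydroxylation, Coq7 as the enzyme and Coq9 as a lipid-binding protein that presents the substrate to it. Coq9 ran from 7708 to 10462 normalized counts (median 8321) in control mice at RT. The 5 control mice at 4°C had 5472, 6435, 5894, 4593 and 4753. Knockout mice had 8509 to 9213 (median 8827) at RT and 4695 to 7390.0 (median 6659) at 4°C. All mice in the cold were below all mice at RT of their genotype, with a log2 difference of -0.67 (SE 0.10) for control and -0.49 (SE 0.10) for knockout mice.

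Coq7 was more scattered, with 1134 to 2057 normalized counts (median 1501) in control mice at RT and 1582, 1123, 1070.3, 975 and 698 at 4°C. One control mouse at 4°C was thus within the RT range and 4 were below it. The Coq7 values of knockout mice lay between 1206 and 1632 (median 1531) at RT and between 1084 and 1682 (median 1371) in the cold. Its log2 difference by cold was -0.51 (SE 0.16) in control and -0.13 (SE 0.15) in knockout mice, and the interaction term was 0.38 with an SE of 0.22.

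**Figure D1:**
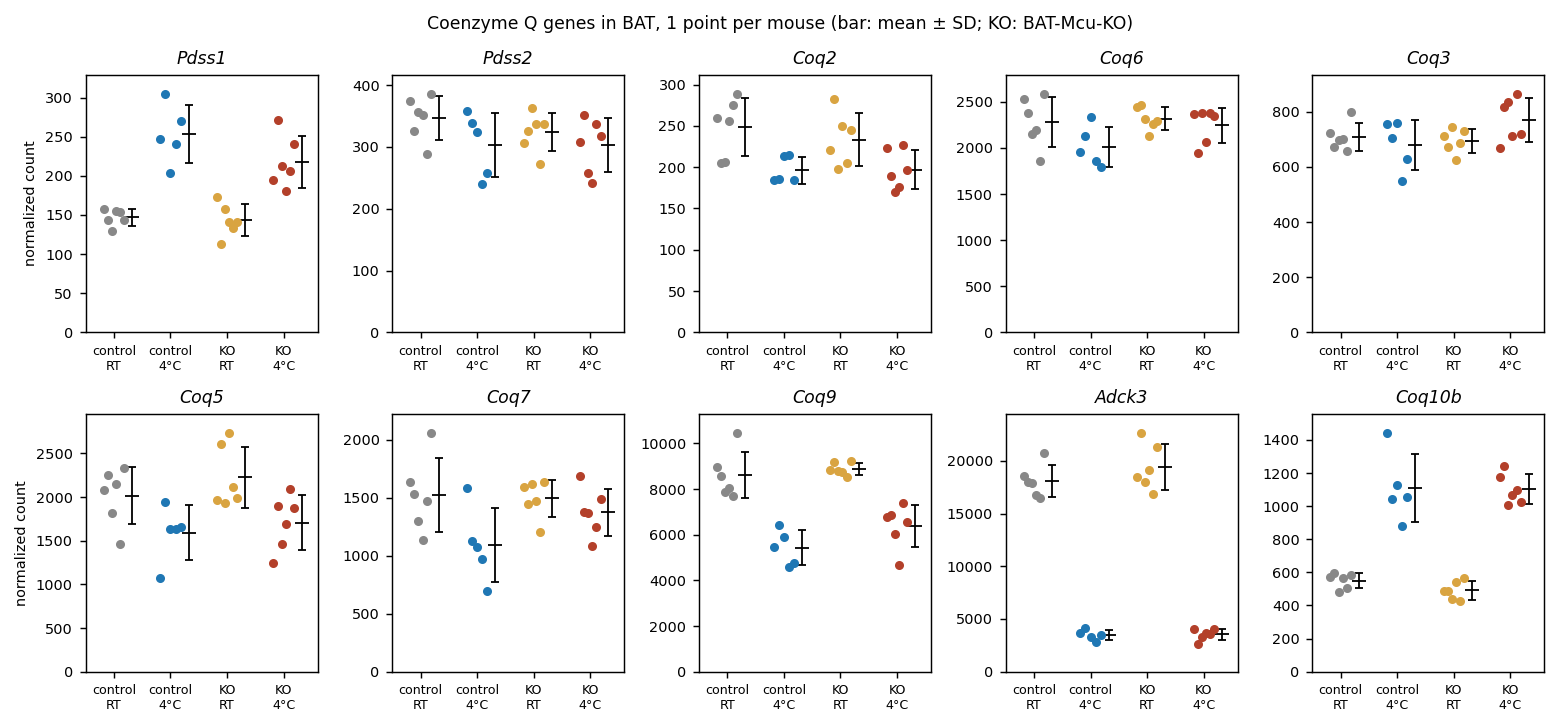
Normalized counts of the 10 genes (y axis, from 0) in the 4 groups (x axis), 1 point per mouse, with the mean and SD as a bar. Adck3 and Coq9 are lower and Coq10b and Pdss1 higher in every mouse at 4°C than in any mouse at RT of the same genotype, while the groups of the other 6 genes overlap.

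Over the 10 members, 6 passed the limma test by cold in control mice, 2 higher and 4 lower, where 46% of all genes passed, 22.3% higher and 23.7% lower. Among knockout mice 5 members passed, 2 of them higher, where 43.3% of all genes did, 21.4% higher and 21.9% lower. These counts restate how the genes came to be chosen, and nothing is read from them. Pdss1 and Coq10b were the higher ones in both genotypes, Coq9 and Adck3 the lower ones in both, with Coq2 and Coq7 also lower in control and Coq5 in knockout mice. The groups of Pdss1, Coq10b, Coq9 and Adck3 did not overlap in either genotype, 2 above and 2 below, where 25.2% of all genes had no overlap in control mice (13% above and 12.3% below) and 24.2% in knockout mice (12.4% above and 11.9% below). With each library scaled to its 75th percentile, 2 members passed as higher and 7 as lower in control mice, and the calls over all genes were 2644 higher and 4281 lower, beside 3269 and 3466 without this scaling. This scaling put the median log2 difference of all genes at -0.13 for control mice. With quantile normalization, too, 2 members passed as higher and 7 as lower in control mice. The calls over all genes were then 3094 higher and 3600 lower, with a median log2 difference of -0.017. Without either step the median log2 difference of the members was -0.27 in control and -0.12 in knockout mice, and that of all genes was -0.02 in each.

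The ranges of the log2 difference over the 11 alternative fits and the 23 fits with 1 mouse left out describe the values the members were chosen by, and support nothing further. For Adck3 they lay between -2.50 and -2.31 for control mice and between -2.53 and -2.37 for knockout mice. Those of Pdss1 were 0.66 to 0.85 and 0.53 to 0.66, and those of Coq9 -0.78 to -0.61 and -0.58 to -0.41. Coq2, Coq5 and Coq7 lay near the threshold. Coq7 in control mice was lost without control 4°C replicate 5. Coq2 in control mice was lost without control 4°C replicate 1, 2 or 5 or control RT replicate 5 or 6, and Coq5 in knockout mice without BAT-Mcu-KO 4°C replicate 1 or 3 or BAT-Mcu-KO RT replicate 2 or 4. Coq5 in control mice was gained without BAT-Mcu-KO 4°C replicate 1, control 4°C replicate 2 or control RT replicate 5. Without the library with most muscle RNA in each group, Coq2 passed in knockout and not in control mice, and Coq5 in control and not in knockout mice. Coq5 in control mice passed in 5 of the 11 alternative fits and Coq2 in knockout mice in 2, so the genotype in which either gene passed depended on the setting.

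**Figure D2:**
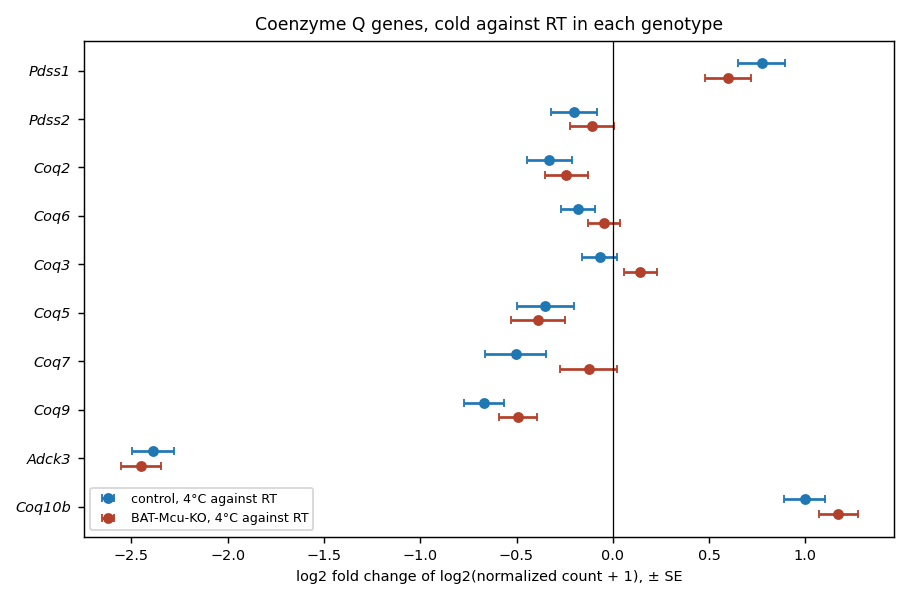
Log2 fold change of each gene at 4°C against RT (x axis) in control (blue) and knockout mice (red), with the SE as a bar. Adck3 stands at -2.39 and -2.45, and Coq10b at 1.00 and 1.17, on either side of 8 genes that lie between -0.67 and 0.77.

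Between genotypes the groups overlapped for each member. At RT 0 of the 10 passed the limma test, where 0.0478% of all genes passed. An unadjusted limma p under 0.05 was found for 0 members, beside 754 of the 14651 genes. The log2 differences of knockout from control mice at RT ran from -0.17 to 0.14, and 0.218% of all genes had groups without overlap. At 4°C 0 of the 10 passed, where 0.0751% of all genes did. There 2 members had an unadjusted limma p under 0.05, beside 1023 of the 14651 genes, and nothing is read from this. Of all genes 0.683% had groups without overlap at 4°C. The highest value at 4°C was that of Coq7, with means of 1090 ± 320.1 (SD, n = 5) for control and 1374 ± 204 (n = 6) for knockout mice and a log2 difference of 0.37 (SE 0.16). Coq9 had 0.23 (SE 0.10), with means of 5429 ± 772 and 6383 ± 941. DESeq2 and edgeR on the recovered reads also called 0 members for genotype at each temperature.

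For Adck3 the genotypes differed by 0.10 (SE 0.10) at RT and 0.04 (SE 0.11) at 4°C. The difference by cold in knockout less that in control mice, called the interaction, was -0.06 (SE 0.15). Over the members the interaction ran from -0.17 to 0.38, and 0 passed limma, edgeR or DESeq2, where limma called 0% of all genes and DESeq2 28 genes, and 878 genes had an unadjusted limma p under 0.05. The comparisons share groups, since each of the 4 groups enters a cold and a genotype comparison.

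Levels of different genes were compared per kb of exon, with the exons of all annotated transcripts of a gene joined. In control mice at RT Adck3 had 3413 ± 286 normalized counts per kb (SD, n = 6) and Coq9 had 2819 ± 335, and their ranges over mice overlapped. Coq6 at 727 ± 86.1 and Coq5 at 665 ± 107 followed, without a clear order between them. Coq3 and Coq7 came next at 237 ± 16.8 and 236 ± 49.3 and did not differ beyond their spread. Coq10b at 115 ± 9.67 and Coq2 at 94.7 ± 13.4 overlapped too. Pdss2 at 58.2 ± 5.91 was clear of both neighbours, and Pdss1 was lowest at 34.6 ± 2.49. This order depends on the length used. With the longest transcript Coq9 had 4814 per kb and Adck3 4486, Coq5 stood above Coq6, and Coq7 at 495.5 stood above Coq3 at 267. With the longest protein-coding transcript Coq7 had 1252 and stood above Coq5, Coq10b at 318 stood above Coq3, and Pdss2 at 163 stood above Coq2 at 143. Pdss1 was lowest with each length.

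In control mice at 4°C Coq9 had 1777 ± 253 per kb and Adck3, next in order, 656 ± 96.4, a 2.71-fold gap without overlap. Adck3 there overlapped with Coq6 at 641 ± 69.2. In knockout mice at 4°C Coq9 had 2089 ± 308, Coq6 715 ± 61.2 and Adck3 673 ± 98.8. Adck3 made up 40.7% ± 1.17 (SD, n = 6) of the summed level per kb of the 10 genes in control mice at RT and 14.9% ± 1.35 (n = 5) at 4°C. For knockout mice the share was 41.6% ± 1.92 at RT and 13.8% ± 2.26 at 4°C (n = 6 each). The range over mice was 39.5% to 44.3% at RT and 10.2% to 16.5% at 4°C. These shares and the order at 4°C were worked out with joined exons only, and they too depend on the length used. In the cold Pdss1 and Pdss2 were at 59.6 ± 8.81 and 50.9 ± 8.74 per kb in control mice, with ranges that overlapped.

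**Figure D3:**
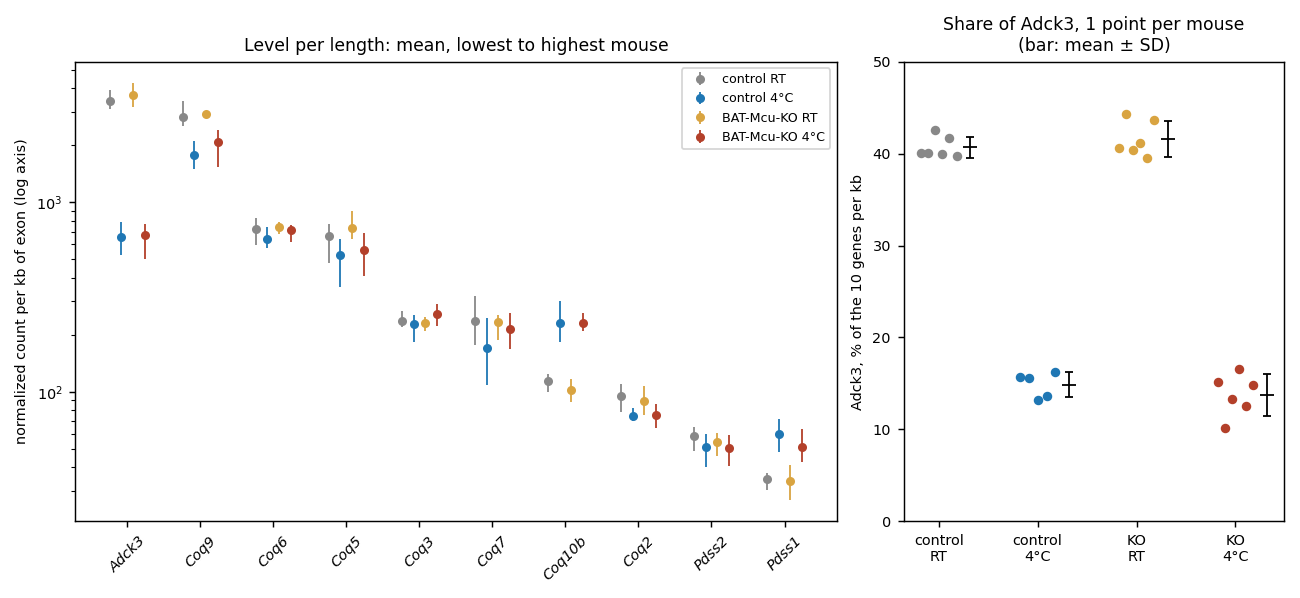
Left, normalized counts per kb of exon (log axis) of the 10 genes in the 4 groups, with points for the mean and lines from the lowest to the highest mouse. Right, Adck3 as a percent of the summed level per kb of joined exons of the 10 genes, 1 point per mouse with mean and SD. The share is 39.5% to 44.3% at RT and 10.2% to 16.5% at 4°C.

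Mice of one group also differ from each other, and this spread was not used to choose the genes. The deviation of Adck3 from its group mean was therefore correlated with that of each of the other 9 members over the 23 mice, by 100000 permutations within groups, two-sided. The highest value was that of Coq6, with r = 0.50 (permutation p = 0.020, adjusted over the 9 relations 0.18) and rho = 0.48 (p = 0.031, adjusted 0.14). Coq9 had r = 0.36 (permutation p = 0.16, adjusted 0.38) and rho = 0.48 (p = 0.030, adjusted 0.14). None of the 9 passed after adjustment. Without the mice farthest from the median of Adck3, BAT-Mcu-KO 4°C replicate 2 and control 4°C replicate 4, r was 0.32 for Coq6 and 0.47 for Coq9. With quantile normalization r was 0.35 and rho 0.10 for Coq6, and r was 0.076 and rho 0.098 for Coq9. The outcome also rests on single mice: without BAT-Mcu-KO 4°C replicate 2, r was 0.60 for Pdss2 and 0.55 for Coq9 (permutation, adjusted p = 0.046 each), and without control 4°C replicate 3 it was 0.60 for Coq6 (adjusted p = 0.017). The correlations with 1 mouse left out used fewer permutations than the 100000 above.

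Of the 27 relations within the groups of 6 mice, that of Coq9 had the highest r at RT, in a comparison chosen after its values were seen. It was 0.94 in control mice at RT (exact permutation p = 0.0069) and 0.94 in knockout mice at RT (p = 0.015), with rho of 0.94 (exact p = 0.017) and 0.77 (exact p = 0.10). In the cold knockout group r was -0.14 (exact permutation p = 0.78) and rho -0.20 (exact p = 0.71). After adjustment over the 27 relations the p-values of r at RT were 0.15, and the difference between the groups was not tested. All values of a mouse share its library and size factor.

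The genes most like Adck3 over the 23 mice were Per3 (r = 0.98), Ampd2 (0.98), P2rx5 (0.98), A530016L24Rik (0.98) and Tspan18 (0.98), out of 9506 genes with a mean of 50 or more normalized counts. Per3 is a period gene of the circadian clock, and its mean was 2215 at RT and 283 at 4°C in control mice. Ampd2, an AMP deaminase, had 569 and 65.1, and P2rx5, an ATP-gated channel, 755 and 138. Tspan18, a tetraspanin, had 2439 and 379. Those most like Coq10b were Rab1 (r = 0.97), Crem (0.97) and Gdap2 (0.96). Crem, a modulator of cAMP-driven transcription, had a mean of 245 at RT and 784 at 4°C in control mice. These correlations describe likeness over 4 groups that differ by temperature, and carry no test.

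The other genes around coenzyme Q, 40 in 5 lists, were not part of the rule and were tested over all 14651 genes. The lists were still drawn up with earlier results of these data known. Most genes named from them below were picked by their p-values here. By cold 20 of 40 passed in control mice, 4 higher and 16 lower, and 15 of 40 in knockout mice, 5 higher and 10 lower. These are 50% and 37.5%, beside 46% and 43.3% of all genes, and the lists together stood near the share of all genes. Most of the 40 have a mean of 50 or more normalized counts. In a fit of the 9531 genes with such a mean, 5422 passed by cold in control and 5070 in knockout mice, a larger share than of all genes. The median log2 difference in control and knockout mice was 0.12 and -0.13 for the pathway list, -0.24 and -0.09 for the enzymes that reduce ubiquinone, -0.39 and -0.52 for the mevalonate list, -0.14 and -0.11 for the ADCK family and -0.13 and -0.03 for complex III, beside -0.02 for all genes. For genotype and for the interaction 0 of the 40 passed limma, edgeR or DESeq2. At an unadjusted limma p under 0.05 there were 0 at RT, 1 at 4°C and 0 for the interaction. Of all genes 754, 1023 and 878 were under it.

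Of 8 other genes of the coenzyme Q pathway, 6 passed in each genotype, 3 higher and 3 lower. Pptc7, a phosphatase of the mitochondrial matrix, rose from 310.4 ± 27.8 to 539.9 ± 66.0 normalized counts in control mice (limma adjusted p = 2.58e-06) and from 296 ± 45.4 to 432 ± 54.5 in knockout mice (adjusted p = 0.000176). Hpdl, which acts in making the ring precursor, rose from 94.9 ± 18.7 to 219.8 ± 51.6 in control mice (limma adjusted p = 1.27e-05) and from 99.7 ± 10.99 to 224 ± 67.8 in knockout mice (adjusted p = 1.97e-05). The third that rose was Fdx1l, and Coq10a and Coq4 were among those that fell. Coq4 shares 27.1% of its exon bases with Trub2 on the other strand, and its call in knockout mice (limma adjusted p = 0.0487) was kept in 6 of the 23 fits with 1 mouse left out. Adck4, the closest relative of Adck3 and named after its values were seen, had log2 differences of 0.08 (SE 0.15) and -0.14 (SE 0.15) and did not pass.

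Fdxr and Fdx1l (now Fdx2) pass electrons to iron-sulfur cluster assembly and to ring hydroxylation, and they moved in opposite directions. Fdxr fell by 0.73 (SE 0.13) on the log2 scale in control mice (limma adjusted p = 4.05e-05) and by 0.55 (SE 0.12) in knockout mice (adjusted p = 0.00055). Fdx1l rose by 1.40 (SE 0.27) in control mice (limma adjusted p = 0.00014) and by 1.03 (SE 0.26) in knockout mice (adjusted p = 0.00216). Most of the exon bases of Fdx1l, 72.7%, are also annotated to another gene model on its strand, Gm38431, so its count is uncertain. Pptc7 shares 21.2% of its exon bases with Rad9b on the other strand.

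Of 11 enzymes that pass electrons to ubiquinone, 6 fell and 1 rose in control mice, and 4 fell and 2 rose in knockout mice. Some of these calls were not stable. The rise of Etfdh in knockout mice was kept in 15 of the 23 fits with 1 mouse left out and 9 of the 11 alternative fits. The fall of Sdhb in control mice was kept in 19 and 8, and that of Sdhc in knockout mice in 19 and 10. Chdh, choline dehydrogenase, fell from 442 ± 121 to 145 ± 28.5 normalized counts in control mice (limma adjusted p = 1.64e-07) and from 542 ± 85.5 to 177 ± 42.0 in knockout mice (adjusted p = 4.9e-08). Dhodh, which makes pyrimidines, fell by 0.86 (SE 0.12) and 0.92 (SE 0.12) on the log2 scale (limma adjusted p = 2.07e-06 and 4.05e-07). Sqrdl, the sulfide quinone oxidoreductase, fell by 0.54 (SE 0.10) and 0.40 (SE 0.10) (limma adjusted p = 9.78e-05 and 0.00135). Aifm2, which reduces ubiquinone outside the respiratory chain, rose from 5666 ± 467 to 7645 ± 1165 in control mice (limma adjusted p = 0.000563) and from 5683 ± 342 to 7963 ± 928 in knockout mice (adjusted p = 9.13e-05). For Chdh, Dhodh, Sqrdl and Aifm2 no mouse at 4°C overlapped with those at RT of its genotype. Over the 11 enzymes, 1 was above and 4 below without overlap in control mice, and 1 and 3 in knockout mice. Of all genes 25.2% had no overlap in control and 24.2% in knockout mice.

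In the mevalonate pathway, which supplies the units of the tail, 2 of 8 genes passed in each genotype, both lower. Acat2, which joins acetyl-CoA units, fell by 1.52 (SE 0.16) on the log2 scale in control and by 1.34 (SE 0.16) in knockout mice (limma adjusted p = 3.84e-08 and 1.56e-07). Mvk, mevalonate kinase, fell by 0.72 (SE 0.19) and 0.65 (SE 0.19) (limma adjusted p = 0.00368 and 0.00585). Hmgcs1, HMG-CoA synthase, which was named after its values were seen, had -0.35 (SE 0.19) and -0.35 (SE 0.18) and did not pass.

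Among the other ADCK family genes, 2 of 4 passed in control mice, both lower, and 1 in knockout mice. Adck1 fell by 0.46 (SE 0.10) on the log2 scale in control mice (limma adjusted p = 0.000319). In knockout mice its difference was -0.23 (SE 0.09, adjusted p = 0.0445), a call that was lost without any 1 of 9 mice: control RT replicate 2, BAT-Mcu-KO RT replicates 2, 3, 4 and 6, and BAT-Mcu-KO 4°C replicates 1, 3, 4 and 5. It was also lost without the variance trend and without the libraries with most muscle RNA. Per kb, Adck1 had 144 ± 16.8 normalized counts in control mice at RT, against 3413 for Adck3. Of 10 genes of complex III, which oxidises ubiquinol, 3 passed in control mice (Uqcrb, Uqcrq and Uqcr10, all lower, named after their values were seen) and 0 in knockout mice. The count was 0 without the variance trend, in a fit of the compared groups alone, with the replicate block, without the libraries with most muscle RNA, and without control 4°C replicate 2, 3, 4 or 5 or control RT replicate 1 or 6, and it was 6 with 75th percentile scaling. In knockout mice limma gave 0 genes at an unadjusted p under 0.05, and DESeq2 and edgeR called 0. Limma there called Uqcrh, higher, in a fit of the compared groups alone, and Uqcrfs1, higher, and Uqcr10, lower, with quantile normalization.

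**Figure D4:**
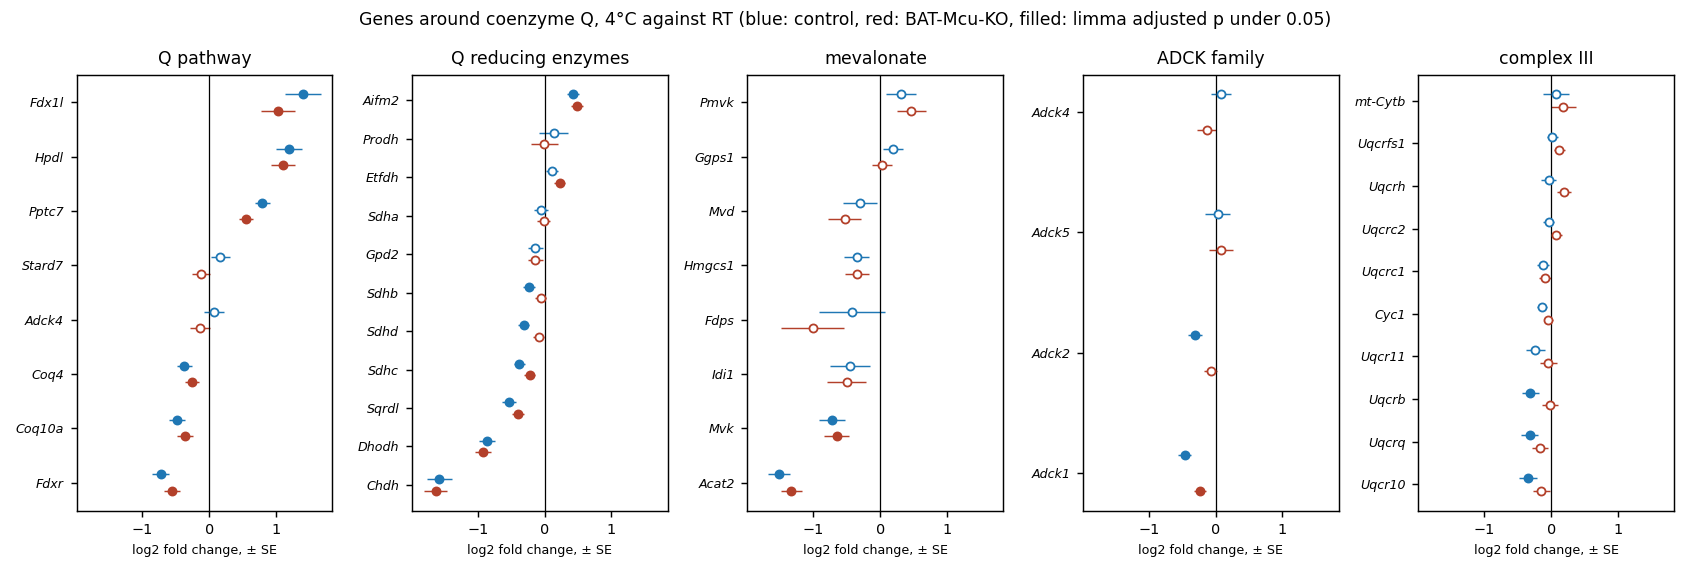
Log2 fold change at 4°C against RT (x axis) of the 40 other genes around coenzyme Q in 5 lists, in control (blue) and knockout mice (red), with the SE as a bar and filled points where the limma adjusted p was under 0.05. Chdh and Acat2 lie lowest and Fdx1l and Hpdl highest in control mice.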

How the data were processed

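The authors aligned 25-base paired reads to mm10 with STAR (version 2.4.0j, per the submitters' processing notes), counted exon reads with HTSeq without regard to strand, and kept genes reaching 8 reads in 6 or more libraries. The deposited signal is these counts scaled by DESeq2 size factors. A second deposited table, of the authors' fold changes and p-values, was not used. In the file 19 symbols had been turned into dates. Of the values 100% were whole multiples of 1 read (tolerance 0.02), so reads could be recovered.

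Groups came from the sample labels. The members and gene lists were chosen with earlier results of these data known. Values were fitted as log2(normalized count + 1), a scale that understates the change of low genes, with limma (version 3.58.1, R version 4.3.3) over all 4 groups and genes, with a variance trend and Benjamini-Hochberg adjustment at 0.05. DESeq2 (version 1.42.0) and edgeR (version 4.0.16), run on recovered reads, called 6875 and 6780 genes by cold in control mice. Named genes were the members, up to 4 genes of each list with the smallest p by cold in control mice that passed in both genotypes in 1 direction, the 5 genes most correlated with Adck3, the 3 with Coq10b, and Mcu, Ucp1, Ppargc1a and Dio2. Other names were chosen after their values were seen. One gene of the lists is not reported here. Lengths and positions came from GENCODE M21. On simulated counts for cold in control mice over 14651 genes, limma found 54 of 71 genes changed 2-fold and 15 of 61 changed 1.5-fold. It called 7 of 14451 unchanged genes. Far fewer genes were changed in the simulation than passed by cold in these mice, so its rates need not hold here. The limma p-values weigh a difference between groups against the spread between these mice within groups. Those of the correlations come from permutations. Leaving out libraries with most muscle RNA, leaving single mice out of correlations, and coding transcript lengths were added after the data were seen.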

Additional observations from a re-analysis of the deposited data

How the results depend on the processing

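With 1 mouse left out, 4 to 7 members passed by cold in control and 4 to 5 in knockout mice, and 16 to 20 and 11 to 15 of the other 40 genes did. Over the other alternatives the members passing numbered 6 to 9 and 5 to 6. For genotype and the interaction the counts were 0 throughout. The replicate numbers did not meet the rule for pairing, that each pair correlate over 0.1. For genotype at 4°C they came near it, as a hint from the data: the mean correlation of same-numbered mice was 0.21 against -0.038 for others, 4 of 5 pairs were over 0.1 (the lowest 0.0042) and 3 mice correlated best with their own number. In the other comparisons the mean was -0.16 to -0.0094. With the replicate block, 7 and 5 members and 17 and 16 other genes passed by cold, and none by genotype.

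The log2 difference of Coq3 by cold in control mice, -0.07, was 0.0049 without control 4°C replicate 4. No other member turned sign by cold. The correlation of Adck3 with Coq3 turned to -0.16 with quantile normalization and to -0.085 without the 2 farthest mice, and that with Coq7 to -0.0082 with quantile normalization, which also put Coq9 at 0.076, Pdss2 at 0.026 and Coq10b at 0.0085. With 1 mouse left out, r ran from -0.42 to 0.041 for Pdss1, 0.16 to 0.60 for Pdss2, -0.19 to 0.22 for Coq3, -0.039 to 0.23 for Coq5, 0.38 to 0.60 for Coq6, 0.25 to 0.55 for Coq9, 0.099 to 0.53 for Coq10b, 0.14 to 0.37 for Coq2 and 0.28 to 0.44 for Coq7.

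The length used moved the level per kb in control mice at RT. With the longest transcript it was 75.4 for Pdss1, 85.2 for Pdss2, 143 for Coq2, 267 for Coq3, 989.9 for Coq5, 495.5 for Coq7, 4814 for Coq9, 4486 for Adck3 and 259.8 for Coq10b. With the longest protein-coding transcript it was 89.5 for Pdss1, 163 for Pdss2, 1286 for Coq6, 1252 for Coq7 and 318 for Coq10b, and as before for Coq2, Coq3, Coq5, Coq9 and Adck3. Depth limits Coq2 and Pdss1 most, with as few as 91 and 94 reads in a mouse.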
